A study of Mus musculus with 9 samples.

Results

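The hypoxia-inducible factor (HIF) pathway was followed through birth in whole mouse hearts by 10 genes, picked by symbol from a table of 48820 genes measured by RNA-seq. They were the alpha subunit genes *Hif1a*, *Epas1* and *Hif3a*, the gene of their partner *Arnt*, the prolyl hydroxylase genes *Egln1*, *Egln2* and *Egln3*, the ubiquitin ligase gene *Vhl*, and the target genes *Vegfa* and *Ankrd37*. Hearts were taken from C57BL/6J wild-type mice without treatment at E18.5d (embryonic day 18.5), P1d and P7d (postnatal days 1 and 7), with 3 hearts at each stage. All 9 hearts share strain, genotype and lack of treatment, and the labels call them male and biological replicates. The study compared the stages to see which genes and metabolic pathways change in the heart around birth. Values are FPKM (fragments per kilobase of transcript and per 1e6 mapped fragments), as the authors deposited them, so levels of different genes can be compared per length.

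HIF is a pair of proteins, an oxygen-sensitive alpha subunit (HIF1A, HIF2A encoded by *Epas1*, or HIF3A) and the constant partner ARNT. When oxygen is plentiful, the prolyl hydroxylases EGLN1, EGLN2 and EGLN3 (also called PHD2, PHD1 and PHD3) hydroxylate the alpha subunits, and VHL then marks them for degradation, so that much of the control lies in protein stability, which RNA levels do not show. When oxygen is scarce, the pair binds short hypoxia response elements and turns on genes of glycolysis, vessel growth and oxygen supply, among them *Vegfa*, *Ankrd37* and *Egln3* itself, which feeds back on the pathway.

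The sequences just before the start sites are shown for 3 of the 4 genes that fell between E18.5d and P1d with the smallest adjusted p (the window of the other, *Egln1*, reaches into its annotated first exon and is not shown), and for *Hif3a*, the gene of the 10 with the largest change. They are 250 bases before the RefSeq start site on GRCm38.p6, 5′ to 3′ on the gene's strand (the minus strand for all 4), at chr8:45999851-46000100 for *Ankrd37*, chr12:54203875-54204124 for *Egln3*, chr17:46032378-46032627 for *Vegfa* and chr7:17062428-17062677 for *Hif3a*. The *Ankrd37* window lies inside the longer *Ankrd37* gene of the GENCODE annotation, whose 5′ end is further upstream, so it precedes the RefSeq start site only. Capitals mark ACGTG or GCGTG, the core letters of a hypoxia response element, on either strand (as CACGT or CACGC on the other strand).
Ankrd37: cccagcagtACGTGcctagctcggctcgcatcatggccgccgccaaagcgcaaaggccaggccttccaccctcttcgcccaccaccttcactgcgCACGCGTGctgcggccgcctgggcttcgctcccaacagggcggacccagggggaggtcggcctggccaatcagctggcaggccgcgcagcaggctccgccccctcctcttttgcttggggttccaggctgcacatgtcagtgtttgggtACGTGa
Egln3: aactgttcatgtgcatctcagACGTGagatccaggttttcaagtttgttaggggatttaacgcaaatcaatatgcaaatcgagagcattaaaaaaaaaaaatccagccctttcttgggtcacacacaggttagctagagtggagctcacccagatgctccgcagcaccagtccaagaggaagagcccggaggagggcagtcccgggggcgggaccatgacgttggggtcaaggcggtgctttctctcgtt
Vegfa: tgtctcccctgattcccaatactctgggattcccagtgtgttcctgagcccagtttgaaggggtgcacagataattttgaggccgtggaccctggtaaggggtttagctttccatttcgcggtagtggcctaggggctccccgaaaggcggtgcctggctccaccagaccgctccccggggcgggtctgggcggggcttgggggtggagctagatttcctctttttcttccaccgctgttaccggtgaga
Hif3a: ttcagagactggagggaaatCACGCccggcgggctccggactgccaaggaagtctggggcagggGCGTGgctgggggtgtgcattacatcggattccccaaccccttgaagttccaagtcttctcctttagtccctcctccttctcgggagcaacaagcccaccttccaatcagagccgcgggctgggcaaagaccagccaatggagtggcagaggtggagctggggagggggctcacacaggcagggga

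The *Ankrd37* window held 4 matches, which began 241, 155, 152 and 6 bases before the start site, the middle ones sharing letters. *Egln3* had 1 match, 229 bases before its start. *Egln1* had 2, at 126 and 68 bases, and *Hif3a* had 2, at 230 and 186 bases. The upstream *Vegfa* window held none, while a second *Vegfa* window at an internal start site held 2. The most matches were in *Egln2*, which had no call on the deposited scale, with 6 and 1 in its 2 windows. *Hif1a* had 3 and *Arnt* had 1. In all, 9 of 11 windows of 9 of the 10 genes (250 bases before to 50 after a start site) held either motif, or 81.8%, against 43.8% of 32851 windows of all genes. ACGTG overlaps the palindrome CACGTG, which is read on both strands and stood in 7.15% of all windows. In *Egln2* such a palindrome gave both matches at 4 and 3 bases before the start. In *Hif1a* it gave both matches at 135 and 134 bases, so these counts hold the same letters read from each strand. A match of 5 letters is a description of the sequence, not a binding site, and the window of *Vhl* had none. Sequence outside these windows was not searched.

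The deposited FPKM have steps of whole fragments, from which a depth of 25.0 to 45.5 (in units of 1e6 fragments) per heart was estimated. Of the hearts labelled male, 4 had *Xist*, the transcript of the inactive X chromosome, at 58.0 to 97.0 FPKM and 4 Y-linked genes at 0 (E18.5d replicates 1 and 3 and P7d replicates 2 and 3), so results are also given with a term for *Xist* where that ends a call. Every P1d heart had *Xist* at 0.07 to 0.11 FPKM, so *Xist* was not balanced between P1d and the other stages. *Scgb3a2*, a gene of airway epithelium, stood at 53.2, 127 and 179 FPKM in E18.5d replicates 1 and 2 and P1d replicate 1 and reached at most 1.0 FPKM in the remaining hearts. Cardiomyocyte markers summed to 15600 to 20500 FPKM in every heart, as the heart label says, and the globin and *Alas2* sum of red cells to 8420 to 24700 FPKM. Differences were tested on log2(FPKM + 1) with limma over 13618 genes, those whose mean over the hearts was 1 FPKM or more, all 10 genes of the pathway among them, and p-values were adjusted over all of them. They measure only the spread between these hearts. The limma log2 changes below are those of log2(FPKM + 1), which understates the change of genes at low FPKM.

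The pathway split into genes with a dip at P1d (*Egln1*, *Vegfa* and *Ankrd37*), a subunit that rose throughout (*Epas1*), genes that were lower at both postnatal stages without a called rise after P1d (*Hif3a* and *Egln3*), and *Vhl*, which was lower at P7d. Despite its rise after P1d, *Ankrd37* was still below its E18.5d level at P7d. From E18.5d to P1d, 6 of the 10 fell (*Hif1a*, *Hif3a*, *Egln1*, *Egln3*, *Vegfa* and *Ankrd37*) and 1, *Epas1*, rose (limma, adjusted p under 0.05), while 27.6% of all genes tested fell and 18.4% rose. From P1d to P7d, 4 rose (*Epas1*, *Egln1*, *Vegfa* and *Ankrd37*) and 2 fell (*Hif3a* and *Vhl*), against 15.5% and 28.6% of all genes. Over the whole span from E18.5d to P7d, only *Epas1* rose and 4 fell (*Hif3a*, *Vhl*, *Egln3* and *Ankrd37*), against 12.5% and 36.9% of all genes. The 2 stages did not overlap in 9, 9 and 7 of the 10 genes in these 3 comparisons, against 54.4%, 53.6% and 62.5% of all genes tested.

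The scale of the columns bears on small changes. On the deposited scale the median gene changed by -0.06 from E18.5d to P1d, by -0.09 from P1d to P7d and by -0.17 from E18.5d to P7d (log2), and 40.0%, 35.1% and 25.3% of all calls were higher. With the columns rescaled by median of ratios, which sets the median gene near 0, these shares were 50.3%, 52.5% and 50.5%. The 10 genes then gave 3 higher and 4 lower at P1d against E18.5d (23.2% and 22.9% of all genes), 5 and 1 at P7d against P1d (21.9% and 19.8%), and 5 and 4 at P7d against E18.5d (21.3% and 20.9%). The higher calls gained over the whole span were *Arnt*, *Egln1*, *Egln2* and *Vegfa*, each with a change of 0.20 to 0.31, so no direction is given below for these 4 genes at P7d against E18.5d. The 3 comparisons share hearts and are not independent of each other.

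**Figure D1:**
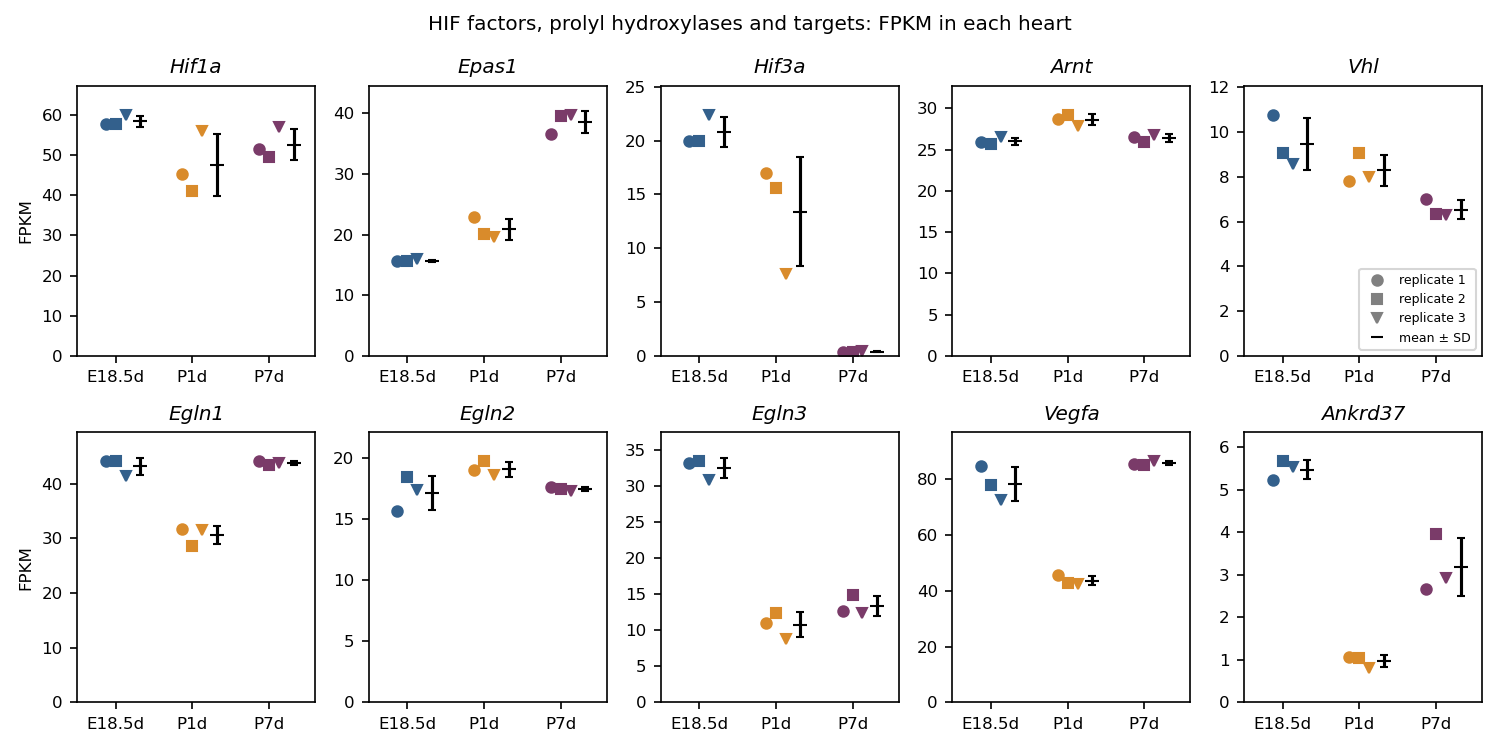
FPKM (y axis, from 0) of the 10 genes in each heart at E18.5d, P1d and P7d (x axis), with replicates 1, 2 and 3 as circles, squares and triangles and the mean ± SD beside them. *Epas1* climbs from stage to stage, *Hif3a* falls to 0.41 FPKM at P7d, *Egln1*, *Vegfa* and *Ankrd37* are lowest at P1d, and *Egln3* is high at E18.5d only.

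*Hif1a* (ENSMUSG00000021109.13, chr12:73901375-73947530), the widely expressed alpha subunit of the acute response, was the most abundant of the 3 alpha subunits in every heart. Its levels were 57.7, 57.7 and 60.0 FPKM in the E18.5d hearts, 45.3, 41.0 and 56.0 FPKM in the P1d hearts, and 51.5, 49.5 and 56.9 FPKM in the P7d hearts. The P1d hearts all lay below the E18.5d hearts, but replicate 3 nearly reached them, and P1d and P7d overlapped. The change at P1d was -0.31 on the log2 scale (SE 0.10, limma adjusted p = 0.035). This call was weak: under median of ratios the adjusted p was 0.0929, a term for *Xist* gave 0.136, and it was 0.0715 to 0.105 when any E18.5d heart or P1d replicate 1 or 2 was left out. At P7d *Hif1a* differed from E18.5d by -0.15 (95% interval -0.38 to 0.08, adjusted p = 0.25), or by 0.03 with median of ratios. Against P1d it differed by 0.16 (adjusted p = 0.247), or by 0.28 (adjusted p = 0.0161) without P1d replicate 3.

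*Epas1* (ENSMUSG00000024140.9, chr17:86753700-86833410), which encodes HIF2A and is known for its expression in endothelium, took the opposite course. Its levels were 15.7, 15.6 and 15.9 FPKM in the E18.5d hearts, 22.9, 20.2 and 19.5 FPKM in the P1d hearts, and 36.6, 39.5 and 39.8 FPKM in the P7d hearts. No 2 stages overlapped. From E18.5d to P7d the mean rose from 15.7 ± 0.178 to 38.6 ± 1.75 FPKM (SD, n = 3), 2.46-fold, a log2 change of 1.24 (SE 0.07, limma adjusted p = 1.55e-06). Both steps passed the test, with 0.38 from E18.5d to P1d (adjusted p = 0.0017) and 0.86 from P1d to P7d (adjusted p = 2.79e-05), but the first was 0.22 (adjusted p = 0.169) with columns rescaled to the same sum.

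Most markers of endothelium were, like *Epas1*, higher at P7d than at E18.5d. The summed level of *Pecam1*, *Cdh5*, *Tie1*, *Emcn* and *Erg* was 255 to 280 FPKM in E18.5d hearts, 307 to 349 FPKM in P1d hearts and 337 to 349 FPKM in P7d hearts. At P7d against E18.5d, 4 of the 5 were higher by 1.29 to 1.67-fold and *Emcn* was lower, while 12.5% of all genes were higher and 36.9% lower. From P1d to P7d, the larger step of *Epas1*, 2 of the 5 were higher and 1 lower, against 15.5% and 28.6% of all genes. Their median change was -0.06, and their sums overlapped. None of them was at 0 at any stage. Over the same step the mural marker sum went from 96.1 to 122 FPKM to 173 to 185 FPKM, with 3 of 4 higher. The fibroblast sum went from 387 to 538 FPKM to 643 to 656 FPKM, with 2 of 4 higher. The epicardial sum fell from 37.1 to 51.7 FPKM to 20.3 to 24.5 FPKM, with 2 of 3 lower. In RNA of a whole heart, more cells of a type and more RNA per cell cannot be told apart. The part of endothelial or other cell types in the *Epas1* result was not tested.

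*Hif3a* (ENSMUSG00000004328.15, chr7:17031507-17062427), whose protein exists in several splice forms of which some restrain the other alpha subunits, was nearly gone by P7d. Its levels were 20.0, 19.9 and 22.4 FPKM in the E18.5d hearts, 17.0, 15.6 and 7.62 FPKM in the P1d hearts, and 0.35, 0.39 and 0.49 FPKM in the P7d hearts. The stages did not overlap, and P1d replicate 3 stood apart from the other P1d hearts, at about 1412 fragments against 3042 and 2716. The P7d values rested on about 79, 101 and 143 fragments. The mean at P7d was 0.0197 of that at E18.5d, a log2 change of -3.95 (SE 0.23, limma adjusted p = 2.19e-06), and 0.0306 of that at P1d, a log2 change of -3.28 (adjusted p = 1.58e-05).

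The earlier step was less firm. From E18.5d to P1d *Hif3a* fell by a log2 change of -0.66 (SE 0.23, limma adjusted p = 0.0396). Without P1d replicate 3 it was -0.33 (adjusted p = 0.0146), and the call was lost on the scale of median of ratios (adjusted p = 0.058), once a term for *Xist* was added (adjusted p = 0.147) and without any one of the E18.5d or P7d hearts (adjusted p 0.0539 to 0.11). *Scgb3a2* was at 0 in all P7d hearts and at 1.0 FPKM in E18.5d replicate 3, the heart with the highest *Hif3a*, and the part of airway tissue in the *Hif3a* values was not tested.

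The 3 alpha subunits summed to 93.2 to 98.3 FPKM in E18.5d hearts, 76.8 to 85.1 FPKM in P1d hearts and 88.5 to 97.1 FPKM in P7d hearts, so the sums at E18.5d and P7d overlapped. *Hif3a* made up 21.4, 21.4 and 22.8% of the sum at E18.5d, 20.0, 20.3 and 9.16% at P1d, and 0.396, 0.436 and 0.505% at P7d. The P1d shares lay just below those at E18.5d in 2 hearts and far below in the other, so the mean difference of -5.37 percentage points became -1.71 without P1d replicate 3. The log2 ratio of *Epas1* to *Hif1a* within a heart, which does not depend on the scale of the column, was -1.89 ± 0.02 in the E18.5d hearts, -1.18 ± 0.30 in the P1d hearts and -0.44 ± 0.10 in the P7d hearts (SD, n = 3). In linear terms *Epas1* stood at 0.266 to 0.271 of the *Hif1a* level at E18.5d and at 0.699 to 0.798 of it at P7d. For both measures no 2 stages overlapped, and each two-sided exact permutation test of 3 hearts against 3 gave p = 0.1, the smallest p this design allows.

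**Figure D2:**
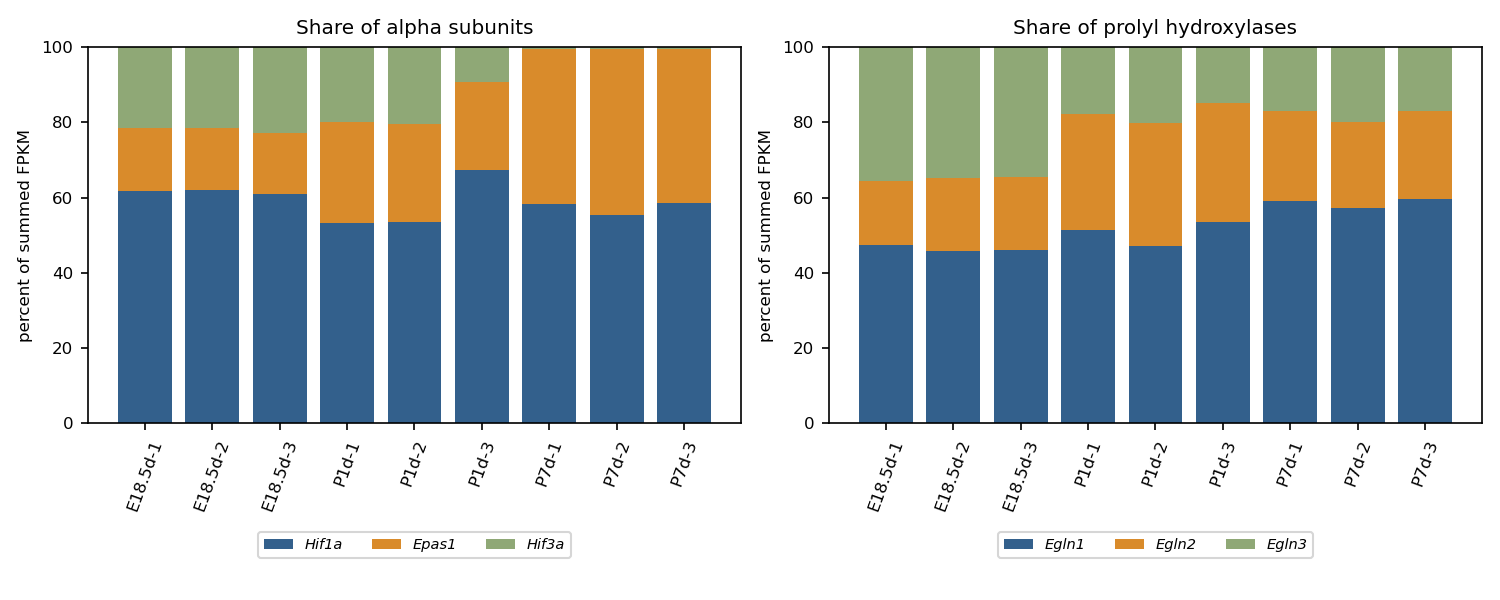
Share of each gene in the summed FPKM (y axis, percent, from 0 to 100) of the 3 alpha subunit genes (left) and the 3 prolyl hydroxylase genes (right) in each heart (x axis, stage and replicate). At P7d the *Hif3a* share is 0.396 to 0.505% and *Epas1* holds 40.9 to 44.2%, and *Egln3* falls from 34.5 to 35.8% at E18.5d to 15.0 to 20.4% at P1d.

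*Arnt* (ENSMUSG00000015522.18, chr3:95434388-95497240), the shared partner, was among the steadiest of the 10. It stood at 26.0, 25.7 and 26.5 FPKM in the E18.5d hearts, 28.6, 29.2 and 27.9 FPKM in the P1d hearts, and 26.5, 25.9 and 26.8 FPKM in the P7d hearts. The P1d hearts lay above both other stages, which overlapped with each other. The difference at P1d from E18.5d was 0.13 (95% interval 0.02 to 0.24, limma adjusted p = 0.0606), or 0.20 (adjusted p = 0.0103) once rescaled by median of ratios, and -0.04 (adjusted p = 0.771) with columns of equal sum. At P7d it was 0.02 from E18.5d (adjusted p = 0.761), -0.02 with columns of equal sum and 0.20 (adjusted p = 0.0115) with median of ratios.

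*Vhl* (ENSMUSG00000033933.13, chr6:113623959-113631633), the substrate receptor of the ubiquitin ligase, was lowest at P7d. Its levels were 10.8, 9.09 and 8.58 FPKM in the E18.5d hearts, 7.80, 9.06 and 8.0 FPKM in the P1d hearts, and 7.01, 6.32 and 6.28 FPKM in the P7d hearts. E18.5d and P1d overlapped, and all P7d hearts lay below both. From E18.5d to P7d it fell by 31.0%, a log2 change of -0.47 (SE 0.09, limma adjusted p = 0.00275), or -0.31 with median of ratios. The fall from P1d to P7d of -0.30 (adjusted p = 0.0275) was lost on the scale of median of ratios (adjusted p = 0.1), once a term for *Xist* was added (adjusted p = 0.119) and without P1d replicate 2 or P7d replicate 2 or 3 (adjusted p 0.0812 to 0.0842).

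The 3 prolyl hydroxylase genes moved apart. *Egln1* (ENSMUSG00000031987.5, chr8:124908587-124949324), which encodes the main hydroxylase under normal oxygen, dipped at P1d and was back by P7d. It stood at 44.1, 44.1 and 41.4 FPKM in the E18.5d hearts, 31.7, 28.7 and 31.5 FPKM in the P1d hearts, and 44.1, 43.5 and 43.8 FPKM in the P7d hearts. The P1d hearts lay below all others, which overlapped. *Egln1* fell by 29.1% from E18.5d to P1d, a log2 change of -0.48 (SE 0.06, limma adjusted p = 0.00016), and rose 1.43-fold from P1d to P7d, a log2 change of 0.50 (adjusted p = 0.000168). At P7d it differed from E18.5d by 0.02 (95% interval -0.11 to 0.15, adjusted p = 0.797), by -0.02 with columns of equal sum, by -0.01 without E18.5d replicate 3 and by 0.20 (adjusted p = 0.0198) with median of ratios.

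*Egln2* (ENSMUSG00000058709.11, chr7:27158658-27166802), the hydroxylase not known as a HIF target, showed no call on the deposited scale. Its levels were 15.7, 18.5 and 17.4 FPKM in the E18.5d hearts, 19.0, 19.8 and 18.6 FPKM in the P1d hearts, and 17.7, 17.5 and 17.3 FPKM in the P7d hearts. The P1d hearts lay above the others by a narrow margin, and E18.5d spanned the P7d values. The difference at P1d from E18.5d was 0.15 (limma adjusted p = 0.0943), or 0.22 (adjusted p = 0.0214) with median of ratios and -0.02 with columns of equal sum. At P7d it was 0.03 from E18.5d (95% interval -0.12 to 0.18, adjusted p = 0.758), -0.01 with columns of equal sum, -0.03 without E18.5d replicate 1 and 0.20 (adjusted p = 0.0322) with median of ratios.

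*Egln3* (ENSMUSG00000035105.5, chr12:54178981-54203860), the hydroxylase most strongly induced through HIF, was lower at both postnatal stages. It stood at 33.3, 33.5 and 30.9 FPKM in the E18.5d hearts, 11.0, 12.4 and 8.87 FPKM in the P1d hearts, and 12.7, 15.0 and 12.5 FPKM in the P7d hearts. The E18.5d hearts lay far above all others, and the P7d hearts just above those at P1d. *Egln3* fell by 67.0% from E18.5d to P1d, a log2 change of -1.52 (SE 0.11, limma adjusted p = 1.05e-05), and by 58.9% from E18.5d to P7d, a log2 change of -1.22 (adjusted p = 3.29e-05). The difference between P7d and P1d was 0.30 (95% interval 0.05 to 0.55, adjusted p = 0.0543). That value passed with median of ratios (0.40, adjusted p = 0.018) and without P1d replicate 2 (0.40, adjusted p = 0.0174), and was 0.18 without P1d replicate 3.

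Together the hydroxylase transcripts summed to 89.8 to 96.0 FPKM in E18.5d hearts, 59.0 to 61.7 FPKM in P1d hearts and 73.6 to 75.9 FPKM in P7d hearts. *Egln1* made up 45.9 to 47.4% of this sum at E18.5d and 57.2 to 59.5% at P7d. *Egln3* went from 34.5 to 35.8% to 16.9 to 19.7% over the same span. The log2 ratio of *Egln3* to *Egln2* was 0.92 ± 0.14 in the E18.5d hearts, -0.84 ± 0.20 in the P1d hearts and -0.39 ± 0.15 in the P7d hearts (SD, n = 3), so *Egln3* exceeded *Egln2* in every E18.5d heart and in no postnatal heart. Each pair of stages was apart in this ratio, with p = 0.1 in the two-sided exact permutation test, the smallest it can give.

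*Vegfa* (ENSMUSG00000023951.16, chr17:46016993-46032369), the main growth factor of blood vessels, dipped at P1d and regained its level. Its levels were 84.7, 77.9 and 72.6 FPKM in the E18.5d hearts, 45.6, 42.9 and 42.4 FPKM in the P1d hearts, and 85.6, 85.1 and 86.3 FPKM in the P7d hearts. The P1d hearts lay far below all others, and E18.5d replicate 1 came close to the lowest P7d heart. *Vegfa* fell by 44.3% from E18.5d to P1d, a log2 change of -0.83 (SE 0.06, limma adjusted p = 1.35e-05), and rose 1.96-fold from P1d to P7d, a log2 change of 0.96 (adjusted p = 1.31e-05). At P7d it differed from E18.5d by 0.13 (95% interval -0.01 to 0.27, adjusted p = 0.12), which passed with median of ratios (0.31, adjusted p = 0.0034) and without E18.5d replicate 1 (0.19, adjusted p = 0.0426).

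*Ankrd37* (ENSMUSG00000050914.16, chr8:45996902-46005707), a small ankyrin repeat gene known as a direct HIF1 target, had the sharpest dip. It stood at 5.22, 5.66 and 5.53 FPKM in the E18.5d hearts, 1.06, 1.05 and 0.81 FPKM in the P1d hearts, and 2.67, 3.96 and 2.92 FPKM in the P7d hearts. No 2 stages overlapped. The P1d values rested on about 29 to 36 fragments a heart. *Ankrd37* fell by 82.2% from E18.5d to P1d, a log2 change of -1.72 (SE 0.12, limma adjusted p = 8.66e-06), rose 3.27-fold from P1d to P7d (1.07, adjusted p = 0.000164) and remained 41.8% below E18.5d at P7d (-0.64, adjusted p = 0.00212). On the log2(FPKM + 1) scale the change of a gene this low is understated. Its exons share 22.7% of their bases with *Lrp2bp* (0.20 to 0.70 FPKM in all hearts) and 3.70% with *Ufsp2* (14.8 to 21.1 FPKM) on the other strand, and since the use of strand in the counting is not known, reads of these genes cannot be told apart there and the low P1d level is uncertain to that extent. Mean *Ufsp2* levels were 19.8, 16.4 and 16.9 FPKM at the 3 stages. The upstream sequence of *Ankrd37* shown above held 4 motif matches and that of *Vegfa*, which also dipped at P1d, held none.

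**Figure D3:**
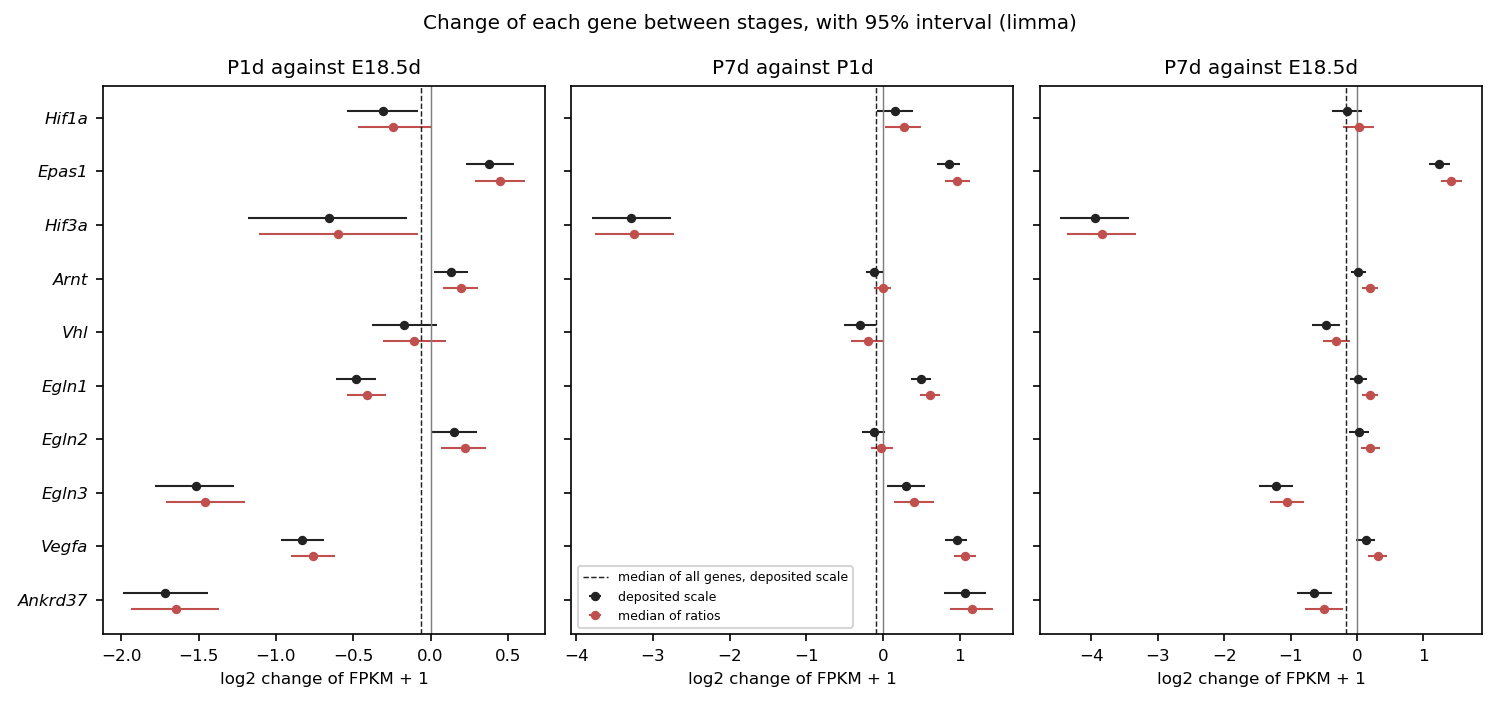
Change of log2(FPKM + 1) with its 95% interval (x axis) for each of the 10 genes (rows) in the 3 comparisons, on the deposited scale (black) and with median of ratios (red), with the median change of all genes on the deposited scale dashed. The x axes differ between the panels. *Hif3a* stands at -3.95 at P7d against E18.5d, and *Egln1*, *Vegfa* and *Ankrd37* lie below 0 in the left panel and above 0 in the middle one on both scales.

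In FPKM, *Vegfa* led at E18.5d (78.4 ± 6.07) and P7d (85.7 ± 0.641), with *Hif1a* and then *Egln1* next at both. At P1d *Hif1a* came first (47.4 ± 7.71) but its hearts overlapped those of *Vegfa* (43.6 ± 1.71). *Ankrd37* was lowest at E18.5d and P1d, and *Hif3a* took its place at P7d. *Epas1* moved from the eighth place at E18.5d, where it overlapped *Egln2*, to the fourth place at P7d, with no overlap with its neighbours there.

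Over the 9 hearts, which fall into 3 stages, the genes with a course most like that of *Hif3a* were *Ncam1* (Pearson r = 0.994), *Rpf1* (r = 0.994) and *Arhgap31* (r = 0.993), among 11819 protein-coding genes compared by log2(FPKM + 1). Their mean levels at E18.5d, P1d and P7d were 82.4, 78.0 and 34.4 FPKM for *Ncam1*, a cell adhesion gene, so the likeness is one of shape and not of the size of the fall. Closest to *Egln3* were *Ciao2b* (r = 0.996), *Ckb* (r = 0.993) and *Agpat5* (r = 0.992). *Ckb*, the brain-type creatine kinase, went from 95.7 FPKM at E18.5d to 50.6 FPKM at P1d and 56.8 FPKM at P7d. Closest to *Vegfa* were *Ackr2* (r = 0.989), *Aars2* (r = 0.988) and *St8sia4* (r = 0.984), with *Ackr2*, a scavenging chemokine receptor, at 1.65, 0.603 and 1.85 FPKM. These values describe 9 points that share a stage in groups of 3, with no test.

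A second list held 13 genes that act on the alpha subunits, such as the asparaginyl hydroxylase gene *Hif1an*, the partners of VHL in its ubiquitin ligase and the co-activators *Ep300* and *Crebbp*, of which 12 were tested (*Arnt2*, at a mean of 0.928 FPKM, was not). At P7d against E18.5d, 8 were lower and none higher on the deposited scale (66.7%, against 36.9% of all genes that were lower). The median change was -0.26, against -0.17 for all genes. With median of ratios 3 of the 12 were lower and 2 higher, where 20.9% of all genes were lower and 21.3% higher. The lower ones with the largest changes were the ligase subunits *Eloc*, from 36.9 ± 1.39 to 22.0 ± 4.05 FPKM (SD, n = 3, limma log2 -0.74, adjusted p = 0.000697) and *Rbx1* (-0.45, adjusted p = 0.00114), and *Siah2*, a ligase gene that targets the hydroxylases (-0.38, adjusted p = 0.00199). At P1d against E18.5d 2 were higher and 4 lower (16.7% and 33.3%, near the 18.4% and 27.6% of all genes). Both that rose were lower again at P7d: *Siah1a*, the other ligase of that family, had 9.72, 18.1 and 10.8 FPKM at the 3 stages (0.84 at P1d, adjusted p = 1.59e-05). Its P7d hearts lay above the E18.5d hearts (limma log2 0.14, adjusted p = 0.115, or 0.30, adjusted p = 0.00514, with median of ratios). *Cited2*, which competes with HIF1A for the co-activators, had 7.04, 11.9 and 6.37 FPKM (0.69 at P1d, adjusted p = 0.000574). From P1d to P7d 5 fell (41.7%, against 28.6% of all genes), *Cited2* and *Siah1a* among them, and none rose.

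Another list held 63 genes known as HIF targets besides *Egln3*, *Vegfa* and *Ankrd37*, of which 60 were tested. The erythropoietin gene *Epo* was listed at 0 in every heart, and *Car9* and *Car12* had means of 0.814 and 0.19 FPKM. At P1d against E18.5d 34 of the 60 fell and 7 rose, 56.7% and 11.7% against 27.6% and 18.4% of all genes tested, with a median change of -0.45 against -0.06. At P7d against E18.5d 39 fell and 7 rose, 65.0% and 11.7% against 36.9% and 12.5% of all genes, with a median of -0.57 against -0.17. From P1d to P7d 22 fell and 19 rose, 36.7% and 31.7% against 28.6% and 15.5% of all genes, with a median of -0.11 against -0.09. With median of ratios 14 fell and 20 rose, where 19.8% of all genes fell and 21.9% rose. Because the list was written with earlier results of these hearts known, its counts are a description.

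Genes of glucose uptake and glycolysis made up much of the fall. Of 21 genes, 19 fell from E18.5d to P1d (90.5%, against 27.6% of all genes) and 20 from E18.5d to P7d (95.2%, against 36.9%), and none rose. With median of ratios 18 fell in each, against 22.9% and 20.9% of all genes. *Slc16a3*, which exports lactate, went from 45.3 ± 3.80 FPKM at E18.5d to 3.55 ± 0.671 FPKM at P1d (limma log2 -3.35, adjusted p = 2.89e-07) and 4.11 ± 0.490 FPKM at P7d. *Slc2a1*, the glucose transporter of fetal tissue, went from 25.7 ± 0.207 to 5.83 ± 0.798 FPKM (-1.97, adjusted p = 2.9e-06) and 3.54 ± 0.611 FPKM. *Pgam1*, a phosphoglycerate mutase, went from 168 to 38.4 FPKM at P1d (-2.10, adjusted p = 1.43e-07), and *Aldoc*, an aldolase, fell by 87.2% to 1.28 FPKM at P7d (-2.26, adjusted p = 1.61e-06).

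Between P1d and P7d the glucose genes split, with 5 higher and 9 lower (23.8% and 42.9%, against 15.5% and 28.6% of all genes), or 5 higher and 5 lower with median of ratios. *Hk2*, a hexokinase, and *Pfkl*, a phosphofructokinase, dipped at P1d as *Vegfa* did, with 46.7, 18.4 and 38.5 FPKM and with 66.8, 20.6 and 43.1 FPKM at the 3 stages. Both rises from P1d to P7d passed the test (limma log2 1.02, adjusted p = 2.15e-05 and 1.04, adjusted p = 9.3e-06). Among those that fell from P1d to P7d were *Aldoc* (-1.69, adjusted p = 2.01e-05), *Slc2a3* (-0.70, adjusted p = 0.00155) and *Slc2a1* (-0.59, adjusted p = 0.00233).

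Of 8 genes that act at mitochondria, 5 fell by P1d and none rose (62.5% lower, against 27.6% of all genes), and 4 were below their E18.5d level by P7d, as were 36.9% of all genes. From P1d to P7d 3 rose and 2 fell (37.5% and 25.0%, against 15.5% and 28.6% of all genes). *Ak4*, an adenylate kinase of the matrix, went from 15.5 ± 2.21 FPKM at E18.5d to 3.99 ± 0.520 FPKM at P1d and 5.69 ± 0.400 FPKM at P7d (limma log2 -1.72 at P1d, adjusted p = 5.92e-06). *Fam162a*, a mitochondrial cell death gene, went from 231 to 99.3 and 75.9 FPKM, and *Bnip3*, a gene of mitophagy, from 73.4 to 54.2 and 26.3 FPKM (-1.44 at P7d, adjusted p = 0.000224). Of the 6 collagen-modifying genes of the matrix list, 4 fell by P1d and 5 rose from P1d to P7d (66.7% and 83.3%, against 27.6% and 15.5% of all genes). All 4 that fell rose again, among them *P4ha1*, a subunit of collagen prolyl hydroxylase, with 36.0, 8.40 and 16.4 FPKM (-1.98 and 0.89, adjusted p = 4.89e-07 and 3.82e-05). At P7d, 5 of the 6 (83.3%, against 36.9% of all genes) were below E18.5d, or 4 with median of ratios (against 20.9% of all genes). *Plod1* was above its E18.5d level (0.49, adjusted p = 6.47e-05).

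Targets that act on vessels had no common direction. Of 8, 2 rose and 1 fell by P1d (25.0% and 12.5%, against 18.4% and 27.6% of all genes), and 2 rose and 3 fell over the whole span (25.0% and 37.5%, against 12.5% and 36.9%). *Angptl4*, an inhibitor of lipoprotein lipase that fatty acid receptors also induce, went the other way from most targets, with 2.00 ± 0.269, 26.1 ± 9.01 and 26.8 ± 4.11 FPKM at the 3 stages (limma log2 3.13 at P1d, adjusted p = 5.17e-06). *Nos2*, the inducible nitric oxide synthase, rose from 0.75 ± 0.108 FPKM at P1d to 5.69 ± 1.69 FPKM at P7d (1.90, adjusted p = 0.000117). The chemokine receptor gene *Cxcr4* dipped with 6.76, 3.21 and 7.69 FPKM.

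Of the 3 iron genes tested, the transferrin receptor *Tfrc* fell at P1d and rose 4.19-fold to P7d, with 54.8 ± 7.36, 21.7 ± 7.74 and 91.1 ± 17.3 FPKM (limma log2 2.06, adjusted p = 0.000228), while the red cell marker sum ran at 8420 to 22700, 12700 to 24700 and 8550 to 10400 FPKM. The part of red cells in these values was not tested. *Hmox1*, which breaks down heme, peaked at P1d with 7.63, 15.8 and 10.3 FPKM. Of 14 targets in stress and transcription, 4 rose and 4 fell by P1d (28.6% each, against 18.4% and 27.6% of all genes). *Ppp1r3c*, a glycogen-targeting phosphatase subunit, dipped with 109 ± 3.31, 24.2 ± 4.60 and 43.4 ± 5.74 FPKM (-2.15 at P1d, adjusted p = 4.04e-06), and *Ddit4*, an mTORC1 inhibitor, peaked with 7.42 ± 0.251, 17.6 ± 4.35 and 7.75 ± 1.05 FPKM (1.11 at P1d, adjusted p = 0.000396).

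**Figure D4:**
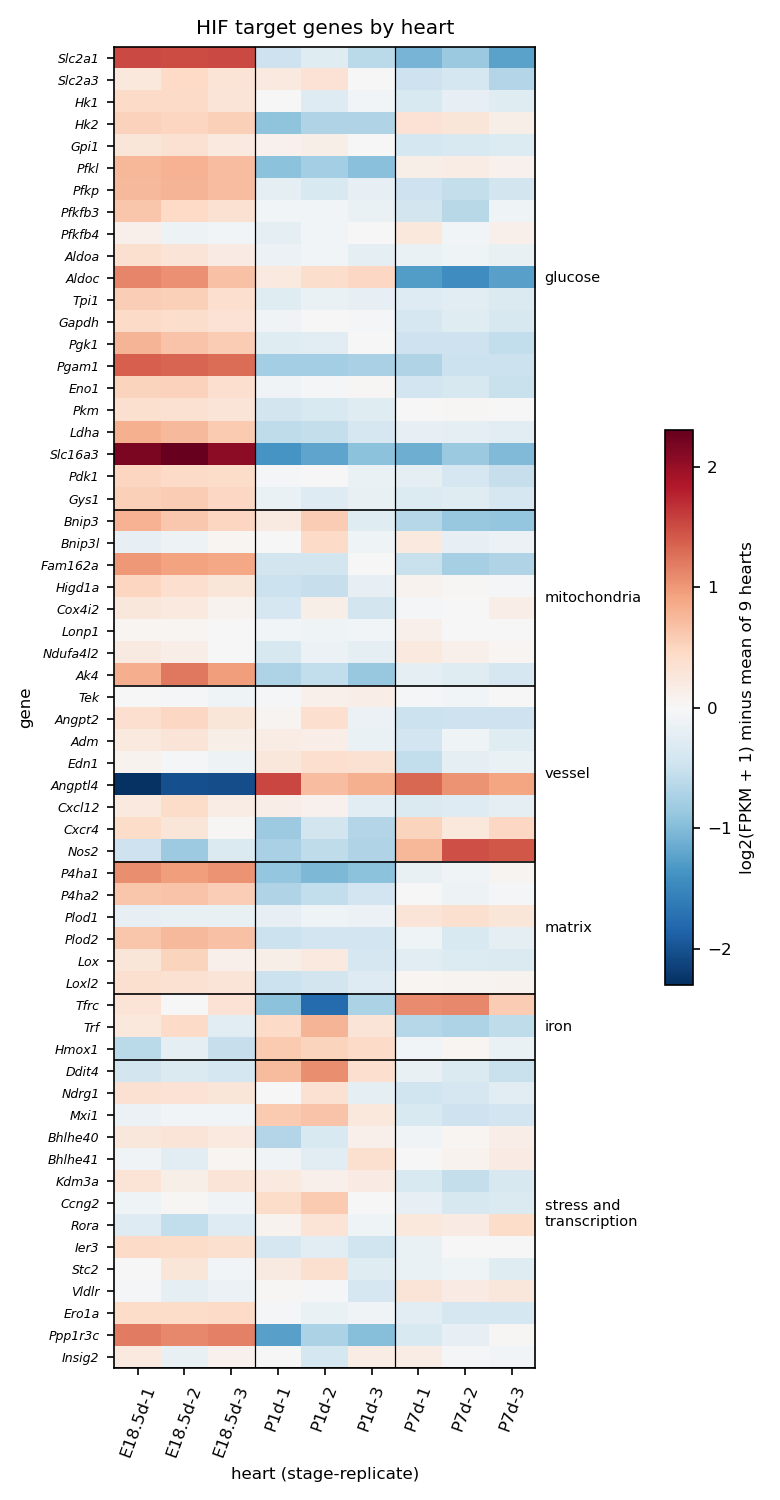
Level of the 60 tested HIF target genes (rows, by group) in each heart (columns, stage and replicate) as log2(FPKM + 1) minus the gene's mean over the 9 hearts, from below the mean (blue) to above it (red). Most glucose rows are red at E18.5d and pale or blue after birth, with *Slc16a3* from 45.3 FPKM at E18.5d to 3.55 FPKM at P1d, and *Angptl4* is the reverse, from 2.00 to 26.1 FPKM.

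The 5 receptors and co-receptors of the VEGF family and the ligand *Vegfb* fell from E18.5d to P1d and rose from P1d to P7d, as *Vegfa* did. Of 9 genes of the family besides *Vegfa*, 7 fell and none rose from E18.5d to P1d (77.8%, against 27.6% of all genes that fell). From P1d to P7d 6 rose and none fell (66.7%, against 15.5% of all genes that rose). The counts were the same with median of ratios, against 22.9% of all genes that fell and 21.9% that rose. The ligand genes *Vegfc* (3.56, 3.19 and 3.07 FPKM) and *Vegfd* (2.91, 2.52 and 3.25 FPKM) passed the test in neither step, and *Pgf* passed only in the first. *Kdr*, the main signalling receptor, had 62.0 ± 2.67, 48.0 ± 1.23 and 83.8 ± 2.77 FPKM at the 3 stages (limma log2 0.79 from P1d to P7d, adjusted p = 1.42e-05). *Nrp2*, a co-receptor, had 16.0 ± 0.952, 12.8 ± 0.735 and 30.0 ± 0.764 FPKM (1.17, adjusted p = 6.27e-06). *Flt1*, the decoy receptor, had 22.1 ± 1.16, 14.6 ± 0.808 and 18.8 ± 0.549 FPKM (0.35, adjusted p = 0.00215). The endothelial marker sum was 255 to 280 FPKM at E18.5d, 307 to 349 FPKM at P1d and 337 to 349 FPKM at P7d, and the part of endothelial cells in the values of this family was not tested.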

How the data were processed

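RNA-seq of 9 C57BL/6J mouse hearts was used, with 3 each at E18.5d, P1d and P7d, grouped by the stage in their labels. The authors deposited FPKM, rounded to 2 decimals, of 48820 genes with 1 column per heart. STAR and GRCm38 (mm10) stand in the submitters' processing notes without versions, and the counting tool, annotation and use of strand are not given in the sources used here. FPKM are not counts, so a scaling or counting choice of the authors carries into every value, and columns were not rescaled to an equal sum.

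Values were transformed to log2(FPKM + 1). In R 4.3.3, limma 3.58.1 (lmFit, contrasts.fit and a trended eBayes) was run on the 13618 genes whose mean was 1 FPKM or more. A single fit without covariates held the 3 stages, p-values were adjusted by Benjamini-Hochberg, and the threshold was 0.05. limma was used where the study names a one-way analysis of variance for several groups. Ratios within a heart were tested by two-sided exact permutation with scipy 1.17.1. Fragments per heart were estimated from the steps of low values (84.2 to 89.4% of these values came out whole), and fragments per gene from these and the exon length. Gene positions are those of GENCODE M21 on GRCm38, which holds 48144 of the identifiers. Promoter windows are from RefSeq on GRCm38.p6. Both scripts for many genes were tested on simulated data.

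The 10 genes and all lists were chosen with earlier results of these data known, and 1 listed gene is not reported here. Besides the 10, the text names from each list and comparison some of the 3 genes with the largest change in each direction, among called genes without overlap between the hearts of both stages, and for *Hif3a*, *Egln3* and *Vegfa* the 3 genes of highest Pearson correlation. *Epo*, *Car9*, *Car12* and *Arnt2*, which were not tested, and *Hif1an*, *Ep300*, *Crebbp*, *Vegfc*, *Vegfd* and *Pgf* are named outside this rule. Samples with the same replicate number deviated together by r = -0.05 to 0.11, so the numbers were not taken to pair the hearts. Alternatives were other pseudocounts, filters and scalings, the replicate block, a term for *Xist*, 2 stages alone and leaving out each heart. No heart was left out. Markers of fibroblasts, mural cells, epicardium, macrophages, thymus and brown fat were also counted and are given in the closing section.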

Additional observations from a re-analysis of the deposited data

How the results depend on the processing

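The directions of *Epas1*, *Hif3a*, *Vhl*, *Egln3*, *Vegfa* and *Ankrd37* did not turn under any setting run. Settings moved the counts of the 10 genes by over 1.5 times as follows. At P7d against E18.5d the higher genes were 1 on the deposited scale, 5 with median of ratios, 3 with an equal sum over protein-coding nuclear genes and 4 with quantile normalization. At P1d against E18.5d they were 1, and 2 with no filter, 0 with columns of equal sum and 3 with median of ratios or quantile normalization. The lower genes at P7d against P1d were 2, and 1 with no filter, columns of equal sum, median of ratios, protein-coding scaling or the *Xist* term. With a log2 change of at least 1 also asked, the 10 genes gave 0 higher and 2 lower at P1d, 1 and 1 at P7d against P1d, and 2 lower at P7d against E18.5d. The 60 targets then gave 2 higher and 13 lower, 5 and 3, and 2 and 11. With columns of equal sum the higher targets were 4 at P1d against E18.5d, and the targets lower at P7d against P1d were 14 rather than 22, as with median of ratios, protein-coding scaling and quantile normalization. The cause was not tested. Leaving out 1 heart gave 1 to 2 higher genes at P7d against E18.5d (2 without E18.5d replicate 1) and 1 to 2 lower genes at P7d against P1d (1 without P1d replicate 2 or P7d replicate 2 or 3).

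Directions turned for changes near 0. These were *Hif1a* at P7d against E18.5d (0.03 with median of ratios, 0.01 with protein-coding scaling), *Arnt* (-0.02), *Egln1* (-0.02) and *Egln2* (-0.01) there with columns of equal sum, *Egln1* without E18.5d replicate 3 (-0.01, with a range of -0.01 to 0.03) and *Egln2* without E18.5d replicate 1 (-0.03, with a range over all hearts left out in turn of -0.03 to 0.08). At P1d against E18.5d they were *Arnt* (-0.04) and *Egln2* (-0.02) with columns of equal sum. At P7d against P1d they were *Arnt* with columns of equal sum (0.02), protein-coding scaling (0.04) and quantile normalization (0.0027), and *Egln2* with columns of equal sum (0.002) and protein-coding scaling (0.02).

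With the replicate number as a block, which the labels do not say pairs the hearts, *Hif3a* at P1d against E18.5d lost its call (-0.66, adjusted p = 0.0551) and *Egln3* at P7d against P1d gained one (0.30, adjusted p = 0.0193). Depth limits *Ankrd37* at P1d and *Hif3a* at P7d most, with about 29 and 79 fragments in the lowest heart. FPKM of whole hearts give no protein level and no cell type.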

Other observations

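Cell type markers other than those of endothelium also shifted between the stages. The counts below are for P7d against E18.5d, where 12.5% of all genes tested were higher and 36.9% lower. Mural markers (*Pdgfrb*, *Rgs5*, *Kcnj8*, *Myh11*) summed to 73.0 to 102 FPKM at E18.5d and 173 to 185 FPKM at P7d, with 3 of 4 higher (limma). Fibroblast markers (*Pdgfra*, *Tcf21*, *Dcn*, *Col1a1*) summed to 489 to 499 and 643 to 656 FPKM, with 1 of 4 higher. Epicardial markers (*Wt1*, *Upk3b*, *Msln*) went from 38.3 to 46.9 to 20.3 to 24.5 FPKM, with 2 of 3 lower. Macrophage markers (*Csf1r*, *Adgre1*, *C1qa*, *Fcgr1*) were at 26.5 to 33.5 and 37.4 to 41.2 FPKM, with 1 of the 3 tested higher. Brown fat markers (*Ucp1*, *Cidea*) were at 5.56 to 7.77 and 31.3 to 36.7 FPKM, both higher. Most of these sums was *Cidea*, while *Ucp1* was at 0 in the E18.5d hearts and at 5.77 to 7.26 FPKM in the P7d hearts. Thymus markers (*Cd3e*, *Rag1*, *Dntt*) reached at most 0.15 FPKM in any heart.

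P1d replicate 3 was the heart with the highest *Hif1a* of its stage. It had the lowest *Epas1*, *Hif3a*, *Arnt*, *Egln2*, *Egln3*, *Vegfa* and *Ankrd37* of its stage, some by a narrow margin. Between hearts of one stage, the largest coefficient of variation among the 10 genes was that of *Hif3a* at P1d (37.7%).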
